A study of Mus musculus with 8 samples.

Results

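The major urinary protein (Mup) genes encode small lipocalins, barrel-shaped carrier proteins that adult mice secrete from the liver into the blood and excrete in urine, where they bind and release volatile signals. Their transcription in the liver is known to follow the pulsatile growth hormone secretion of males through the transcription factor STAT5b, and it is also known to respond to androgens, glucocorticoids, thyroid hormone and feeding. The data examined here are RNA-seq read counts from whole liver of C57BL/6 mice (C57BL/6N in the study's methods) taken after weaning, with 2 libraries for each of 4 groups, namely WT males, NT-KO males, WT females and NT-KO females. NT-KO animals are homozygous for a deletion at the start of the coding part of Lbr, the gene for the lamin B receptor of the inner nuclear membrane. The deletion is germline, so that every cell carries it, and it leaves the part of the gene for the sterol reductase domains in place. The WT mice are of the same strain, and the labels name no treatment for any group. The genes described were the 10 rows of the count table whose identifier maps to Mup1, Mup3, Mup7, Mup10, Mup11, Mup13, Mup17, Mup19, Mup20 or Mup21, out of 49 Mup loci and 49671 rows in all. The comparisons asked how the Mup genes differ between the sexes in each genotype, how NT-KO livers differ from WT livers in each sex, and whether that genotype difference is unlike in males and females.

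All 10 genes lie on the minus strand of chromosome 4 (GRCm38), within a cluster of 48 Mup loci that runs from 59956804 to 62150863. Each gene spans between 2932 and 4007 bases, with 677 to 1584 bases of exon. The 39 loci not among the 10 are 12 protein-coding Mup genes and 27 pseudogenes. Of the 3 genes most divergent in coding sequence, Mup20 occupies chr4:62050234-62054158, Mup3 chr4:62083476-62087342 and Mup21 chr4:62147932-62150863, all at one end of the cluster, whereas Mup7 at chr4:60066469-60070475 lies near the other end. Between them lie Mup1 at chr4:60498012-60501960, Mup10 at chr4:60578260-60582199, Mup11 at chr4:60658466-60662411, Mup13 at chr4:61224307-61228286, Mup17 at chr4:61591929-61595871 and Mup19 at chr4:61778324-61782269.

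How well a read can be assigned to one of these genes depends on their sequences, so a stretch of 60 coding bases is shown for each, in cluster order and 5′ to 3′. It was taken from GENCODE transcripts of GRCm38, and it is the gap-free window of the aligned coding sequences that gave the most distinct sequences. It starts 190 to 202 bases into the coding sequence, counted from the A of the start codon. Capitals mark bases that differ from the most common base among the 10 genes.
Mup7: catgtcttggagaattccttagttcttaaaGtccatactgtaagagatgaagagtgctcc
Mup1: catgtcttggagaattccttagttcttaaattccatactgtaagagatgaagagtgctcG
Mup10: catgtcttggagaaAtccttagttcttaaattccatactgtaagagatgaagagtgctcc
Mup11: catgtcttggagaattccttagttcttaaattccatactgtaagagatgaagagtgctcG
Mup13: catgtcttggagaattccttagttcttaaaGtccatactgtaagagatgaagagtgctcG
Mup17: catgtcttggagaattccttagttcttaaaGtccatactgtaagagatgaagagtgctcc
Mup19: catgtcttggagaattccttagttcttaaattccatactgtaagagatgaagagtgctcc
Mup20: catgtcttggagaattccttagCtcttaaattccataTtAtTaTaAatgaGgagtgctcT
Mup3: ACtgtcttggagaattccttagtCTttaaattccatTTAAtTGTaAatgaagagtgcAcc
Mup21: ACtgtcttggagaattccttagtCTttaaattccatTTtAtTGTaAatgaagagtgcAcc
The 10 genes gave 8 distinct stretches, with Mup1 identical to Mup11 and Mup7 identical to Mup17. Over the whole coding sequence of 540 to 552 bases, the 7 genes Mup1, Mup7, Mup10, Mup11, Mup13, Mup17 and Mup19 were 98.3 to 99.6% identical to each other. Mup20 was 90.4 to 91.3% identical to these 7, Mup21 84.1 to 85.0% and Mup3 83.9 to 84.8%, while Mup3 and Mup21 were 96.3% identical to each other. Of all stretches of 50 bases in the transcripts of Mup3, 13.3% also occurred in another gene, and for Mup21 this was 19.3%. The share was 50.5% for Mup20, mostly with the pseudogene Mup-ps19, which holds 48.0% of the Mup20 stretches. It was 61.6% for Mup1, 76.5% for Mup10, 77.8% for Mup11, 78.1% for Mup17, 86.7% for Mup7, 92.8% for Mup13 and 100% for Mup19. Values for Mup3 and Mup21 therefore rest mostly on sequence of their own. Those of the 7 near-identical genes, and of Mup19 in particular, depend on how reads with several matching loci were assigned, and that setting is not given in the sources used here.

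The promoters show the same division. RefSeq windows (GRCm38.p6, 250 bases before to 50 after the start) held 7 of the 10 genes, all but Mup1, Mup13 and Mup20. The stretch printed for each is the part of each window, 111 or 112 bases long and on the minus strand, that lies between the same flanking letters. It ends between 1 and 136 bases before the annotated start, since RefSeq places the start of these genes at different points. Capitals mark bases that differ from the most common base among the 7.
Mup7, chr4:60070476-60070587: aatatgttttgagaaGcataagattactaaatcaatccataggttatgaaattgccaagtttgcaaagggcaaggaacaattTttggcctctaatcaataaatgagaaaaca
Mup10, chr4:60582291-60582402: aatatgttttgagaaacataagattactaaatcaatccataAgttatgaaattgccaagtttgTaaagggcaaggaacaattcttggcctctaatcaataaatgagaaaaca
Mup11, chr4:60662502-60662613: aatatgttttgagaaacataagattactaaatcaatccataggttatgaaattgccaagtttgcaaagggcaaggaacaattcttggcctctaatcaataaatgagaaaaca
Mup17, chr4:61595962-61596073: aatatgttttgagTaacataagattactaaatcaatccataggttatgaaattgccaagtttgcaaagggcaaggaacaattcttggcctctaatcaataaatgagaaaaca
Mup19, chr4:61782358-61782469: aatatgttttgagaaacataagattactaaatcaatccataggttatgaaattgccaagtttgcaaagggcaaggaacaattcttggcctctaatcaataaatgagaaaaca
Mup3, chr4:62087399-62087509: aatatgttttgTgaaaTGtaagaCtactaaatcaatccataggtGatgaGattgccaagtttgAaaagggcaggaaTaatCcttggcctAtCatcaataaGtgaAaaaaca
Mup21, chr4:62150917-62151027: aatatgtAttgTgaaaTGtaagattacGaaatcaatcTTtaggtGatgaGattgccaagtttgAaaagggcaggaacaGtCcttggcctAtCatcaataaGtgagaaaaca
Among the 5 promoters of near-identical genes no pair differed by more than 4 substitutions, and Mup11 and Mup19 did not differ. Between these 5 and Mup3 or Mup21 there were 13 to 17 substitutions. The letters ATCAAT, part of a binding site of the liver factor ONECUT1, occurred on either strand in the windows of all 7 genes and in 7.54% of the 32851 promoters of the same length. The TATA box letters TATATAA were found in 6 of the 7 windows, all but that of Mup7, and in 3.24% of all promoters. The stretch of Mup7 ends 1 base before its annotated start, and the others end 76 to 136 bases before theirs. The window of Mup7 thus covers less sequence past the stretch. The STAT5 letters TTCNNNGAA were in none of the 7 windows and in 8.3% of all promoters. The printed parts of the 7 windows are much alike, so these counts are not 7 separate observations. Sites outside the windows were not searched.

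Each library held between 45020377 and 64396291 counts. Levels are given as CPM, the count in each 1e6 of the library total after scaling with edgeR's TMM factors, and 1 count was worth 0.0155 to 0.0222 CPM. Lbr itself was listed at 6.54 to 7.99 CPM in WT libraries and at 12.8 to 14.0 CPM in NT-KO libraries, and the reads of this table do not show which of its exons are present. Xist was at 788 to 967 CPM in the 4 female libraries and at 0.723 to 3.21 CPM in the 4 male libraries. The 8 hepatocyte markers, Alb and Ttr among them, summed to between 78233 and 114808 CPM, and none of them was called in any comparison. Of 7 markers of pancreas and salivary gland, the latter a known site of expression of other Mup genes, 6 had less than 1 CPM in every library. Replicates of a group are only said to be separate samples of one genotype and sex. The p-values set a difference against the spread between such samples, estimated over all 4 groups together and with information from other genes. In a whole tissue, fewer cells of a type and less RNA per cell cannot be told apart.

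The Mup loci made up a much larger part of the male than of the female liver transcriptome. Summed over all 49 loci they took 5.73% and 7.11% of the counts in the male WT libraries, 5.87% and 3.25% in NT-KO males, 0.845% and 0.662% in WT females and 0.626% and 0.774% in NT-KO females. In CPM the family total was 61928 and 75495 in WT males, 60405 and 32932 in NT-KO males, 8032 and 6261 in WT females and 5985 and 7530 in NT-KO females. All 4 male libraries lay above all 4 female libraries, and the second male NT-KO library had the lowest total among the males. The means were 68712 ± 9594 (SD, n = 2) in WT males, 46669 ± 19427 (SD, n = 2) in NT-KO males, 7147 ± 1252 (SD, n = 2) in WT females and 6757 ± 1092 (SD, n = 2) in NT-KO females. In edgeR's quasi-likelihood test, run with all Mup loci summed to 1 row, the total was higher in males by a log2 fold change of 3.27 (SE 0.34, FDR 0.00196) in WT and of 2.79 (SE 0.33, FDR 0.00419) in NT-KO. With the first or the second female NT-KO library left out, the NT-KO difference was 2.63 (FDR 0.0891) or 2.96 (FDR 0.0602).

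**Figure D1:**
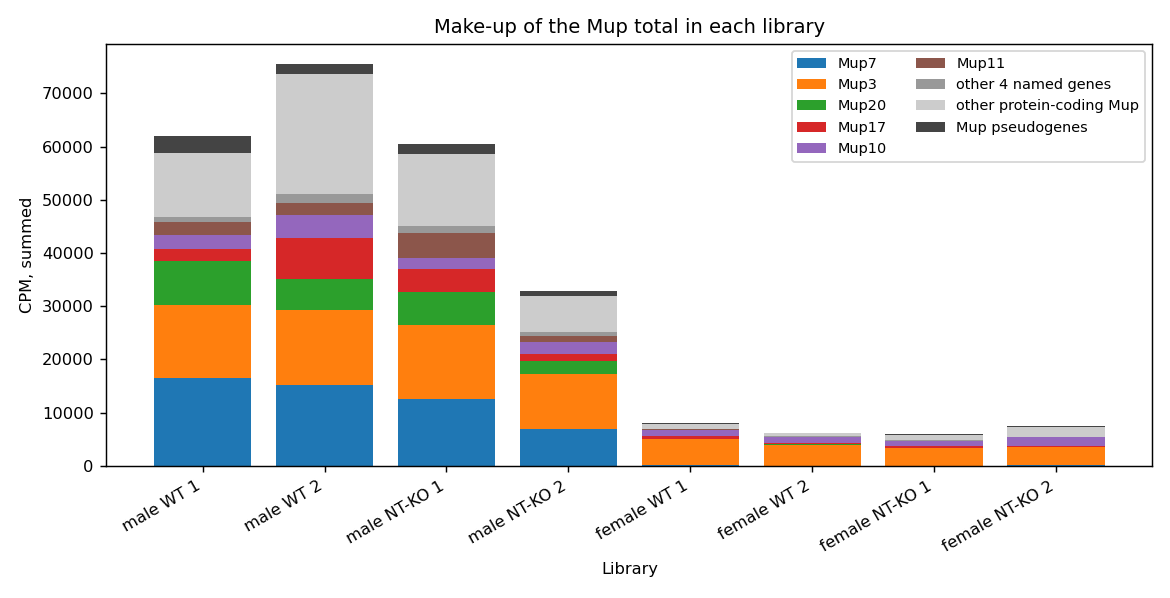
Summed CPM of the Mup loci in each of the 8 libraries, split into the 6 most abundant of the 10 genes, the other 4, the other protein-coding Mup genes and the pseudogenes. The bars of the 4 male libraries reach from 32932 to 75495 CPM and those of the 4 female libraries from 5985 to 8032 CPM, and Mup3 is the largest part of every female bar.

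The composition of the family also differed by sex. In females Mup3 alone took 44.1 to 63.1% of the Mup counts, and in males 18.8 to 31.1%. Mup7 took 20.1 to 26.8% in males and 0.705 to 1.84% in females, and Mup10 took 3.31 to 7.04% in males and 15.6 to 20.8% in females. Levels between genes were compared per kilobase of exon. This does not correct for reads that match several loci, so the shares and the order are those of the counts as assigned. Of the 50-base stretches of Mup7, 86.7% occurred in another gene, and of those of Mup3 13.3%. In the livers of WT males Mup7, at 15370 ± 961 CPM per kb, stood above Mup3, at 13019 ± 367, and both above Mup20, at 7579 ± 1834 (SD, n = 2). Mup20, Mup17 and Mup10 followed, each overlapping the next, and below them came Mup11 at 1531 ± 88.7. At the bottom Mup19 and Mup21 overlapped, as did Mup13 and Mup1, the lowest at 166 ± 21.5. In the livers of NT-KO males Mup3 and Mup7 overlapped at the top, and Mup1 was again lowest, overlapping Mup13. In the livers of WT females Mup3 stood first at 4175 ± 676 CPM per kb, then Mup10 at 876 ± 32.9 and Mup17 next at 361 ± 158, with no overlap between the 3. Mup7, first in WT males, stood there at 65.8 ± 32.6 and overlapped Mup19 and Mup20. In the livers of NT-KO females Mup3, Mup10 and Mup17 kept these places, at 3120 ± 10.6, 917 ± 293 and 324 ± 31.7.

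**Figure D2:**
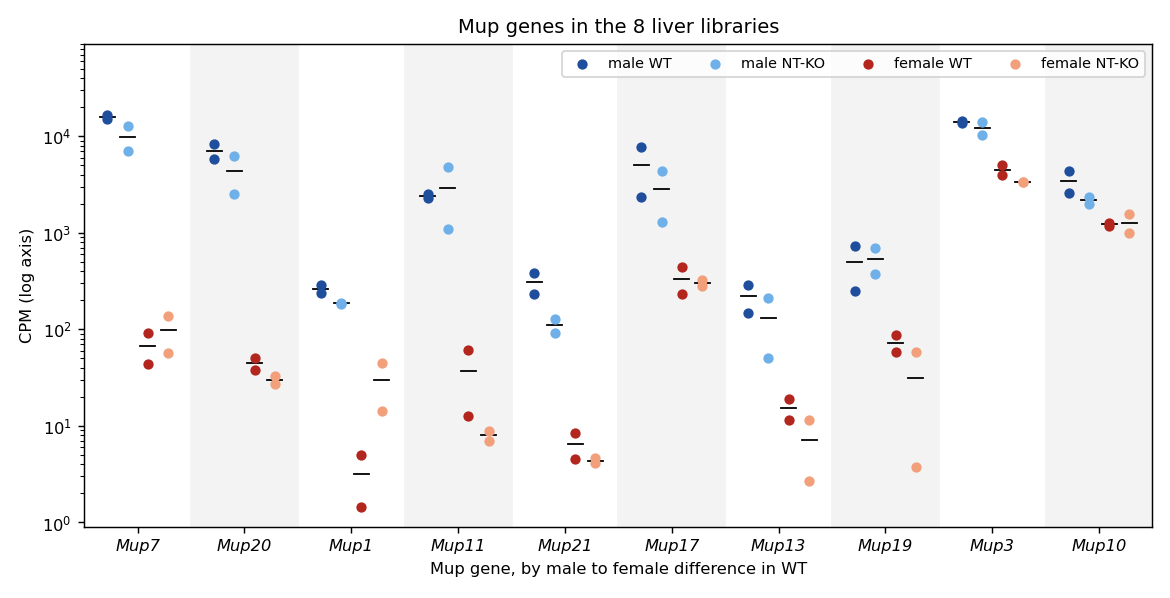
CPM on a log axis of the 10 Mup genes in the 8 libraries, with a point per library, coloured by group, and a bar at the group mean. For every gene both male points lie above both female points within each genotype, and the gap is narrowest for Mup3 and Mup10.

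In WT livers 9 of the 10 genes were called higher in males and none was called lower. A gene was called where its FDR (Benjamini-Hochberg, over the 13117 genes tested) did not exceed 0.05 and its log2 fold change went beyond 1 in either direction, and by this rule 2.13% of all tested genes were higher in males, 2.55% were lower and 4.68% were called in all. All 10 genes passed the filter on low counts. Both male libraries lay above both female libraries for all 10. Of all tested genes 30.6% lay higher in males in this way and 31.4% lower, so that 62% did not overlap. The median log2 fold change of the 10 was 4.73, against -0.002 over all tested genes. The count fell to 5 without the second female WT library, when Mup3, Mup10, Mup13 and Mup17 missed the FDR.

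Mup20 encodes darcin, the male urinary protein that attracts females by scent. It had 8237 and 5830 CPM in WT males and 50.8 and 37.6 CPM in WT females, far apart with no overlap. In NT-KO livers it had 6231 and 2488 CPM in males and 27.0 and 32.9 CPM in females. The log2 fold change between males and females was 7.31 (SE 0.54, FDR 0.000498), or 159-fold, in WT and 7.19 (SE 0.53, FDR 0.000542), or 146-fold, in NT-KO. Mup21, a neighbour of Mup20 that is less abundant, had 231 and 380 CPM in WT males against 8.34 and 4.58 CPM in WT females. In NT-KO it had 92.1 and 128 CPM in males against 4.64 and 4.08 CPM in females, so that its male NT-KO libraries lay below its male WT libraries. Its log2 fold change by sex was 5.57 (SE 0.40, FDR 0.000498) in WT and 4.66 (SE 0.39, FDR 0.000831) in NT-KO. Mup3, also of the divergent class, had 13628 and 14182 CPM in WT males and 4969 and 3948 CPM in WT females, a far smaller gap at a high level in both sexes. In NT-KO livers it had 13857 and 10240 CPM in males and 3340 and 3324 CPM in females. The log2 fold change of Mup3 was 1.64 (SE 0.23, FDR 0.00829) in WT and 1.85 (SE 0.23, FDR 0.00491) in NT-KO. These 3 genes share the fewest stretches of 50 bases with other genes, and all 3 were called higher in males in both genotypes.

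Among the 7 near-identical genes, whose products form the bulk of the proteins excreted in male urine, Mup7 showed the widest sex difference in WT. It was listed at 16579 and 15176 CPM in WT males and at 91.7 and 44.1 CPM in WT females. That is a log2 fold change of 7.87 (SE 0.66, FDR 0.000737), or 234-fold. In NT-KO livers Mup7 had 12596 and 6940.0 CPM in males and 56.6 and 139 CPM in females, a log2 fold change of 6.65 (SE 0.63, FDR 0.00146). Mup11 had 2511 and 2314 CPM in WT males and 60.6 and 12.6 CPM in WT females, and 4766 and 1090 CPM in NT-KO males against 7.04 and 8.87 CPM in NT-KO females. Its replicates spread widely in every group but WT males and NT-KO females. The log2 fold change of Mup11 was 6.04 (SE 0.94, FDR 0.0124) in WT and 8.52 (SE 1.05, FDR 0.00469) in NT-KO. Mup1, the least abundant per kilobase in WT males, had 239 and 287 CPM in WT males and 4.94 and 1.44 CPM in WT females. It had 189 and 183 CPM in NT-KO males and 14.2 and 45.1 CPM in NT-KO females, where both female values were above those of WT females. The sex difference of Mup1 was 6.37 (SE 0.75, FDR 0.00331) in WT and 2.65 (SE 0.62, FDR 0.101) in NT-KO.

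In WT livers the remaining genes of this class differed less between the sexes. Mup17 had 2331 and 7676 CPM in WT males and 438 and 231 CPM in WT females, and in NT-KO 4375 and 1290.0 CPM in males and 322 and 280 CPM in females. Its male replicates differed more than 2-fold in both genotypes, and its log2 fold change was 3.90 (SE 0.74, FDR 0.0255) in WT and 3.24 (SE 0.72, FDR 0.0824) in NT-KO. Mup13 had 149 and 289 CPM in WT males, 18.8 and 11.6 CPM in WT females, 209 and 51.0 CPM in NT-KO males and 11.6 and 2.66 CPM in NT-KO females. The groups did not overlap between the sexes, with a log2 fold change of 3.85 (SE 0.85, FDR 0.0399) in WT and 4.20 (SE 0.87, FDR 0.0614) in NT-KO. Mup10, the second most abundant Mup gene of female livers per kilobase, had 2554 and 4307 CPM in WT males and 1251 and 1186 CPM in WT females. In NT-KO it had 2001 and 2317 CPM in males and 987 and 1564 CPM in females, the narrowest gap of the 10. Its log2 fold change was 1.49 (SE 0.31, FDR 0.0345) in WT and 0.76 (SE 0.31, FDR 0.456) in NT-KO. Mup19 had 250 and 734 CPM in WT males, 86.7 and 58.4 CPM in WT females, 698 and 371 CPM in NT-KO males and 58.5 and 3.75 CPM in NT-KO females. It was not called in either genotype, with a log2 fold change of 2.76 (SE 1.05, FDR 0.142) in WT and 4.10 (SE 1.12, FDR 0.174) in NT-KO, although both male libraries lay above both female libraries.

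In NT-KO livers 5 of the 10 genes were called higher in males, namely Mup3, Mup7, Mup11, Mup20 and Mup21, and none lower. By the same rule 0.945% of all tested genes were higher in males and 0.839% lower, and 1.78% were called in all. The median log2 fold change of the 10 was 4.15, against 0.013 over all tested genes, and all 10 had an unadjusted p under 0.05, as had 9.81% of the tested genes. Both male libraries again lay above both female libraries for all 10, against 16.9% of all tested genes, with 17.4% lower and 34.3% without overlap in all. Without the second female NT-KO library the count was 3, when Mup3 and Mup11 missed the FDR. The likelihood ratio test of edgeR called 9 genes, and DESeq2 also called 9. The difference between the 2 sex differences is the genotype by sex term, in which none of the 10 was called.

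**Figure D3:**
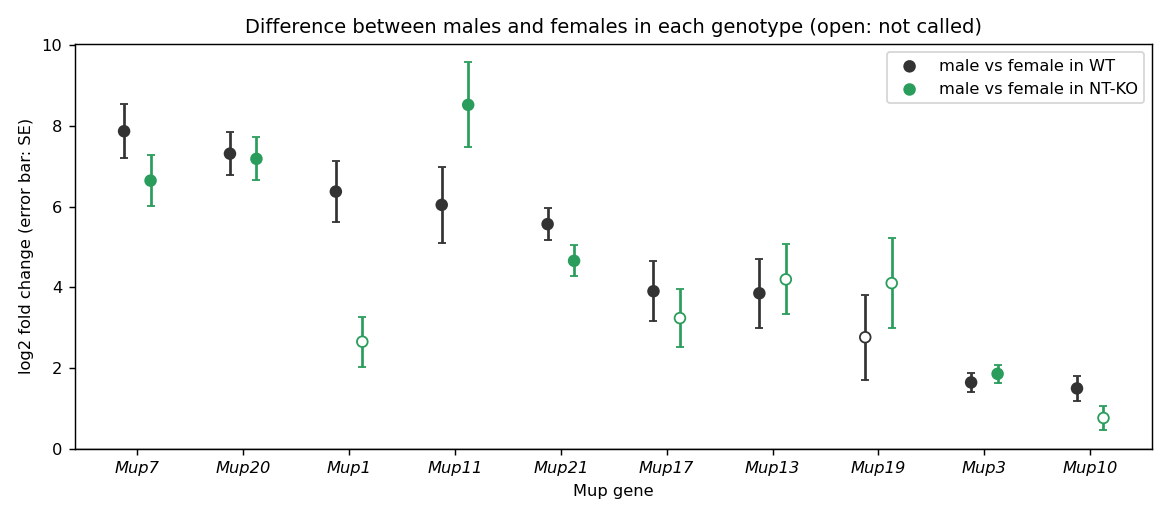
Log2 fold change between males and females for the 10 Mup genes in WT and in NT-KO, with the SE as error bar, filled where the gene was called and open where it was not. In WT 9 of the points are filled and in NT-KO 5, all points lie above 0, and Mup1 shows the widest gap between the genotypes.

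Loci with a sex difference lay along the whole cluster. Of the 12 other protein-coding Mup genes, all tested, 8 were called higher in WT males and 5 in NT-KO males. Over all tested genes 2.13% and 0.945% were called higher in males. In WT these were Mup14, with a log2 fold change of 8.15 (SE 0.66, FDR 0.000603), Mup8 with 6.13 (SE 0.48), Mup12 with 4.89 (SE 0.47), Mup15 with 4.87 (SE 0.62), Mup16 with 4.11 (SE 0.60), Mup2 with 4.10 (SE 0.91), Mup6 with 2.90 (SE 0.66) and Mup22 with 1.51 (SE 0.29). Mup15 was the most abundant of them, at 6455 and 9626 CPM in WT males, 8508 and 2840 CPM in NT-KO males, 356 and 195 CPM in WT females and 213 and 128 CPM in NT-KO females. In NT-KO the calls were Mup8, Mup12, Mup14, Mup15 and Mup16. Of 27 pseudogenes 16 were tested, and 6 of them were called higher in WT males, among them Mup-ps19, at 7.68 (SE 0.45, FDR 0.000155), which shares sequence with Mup20. Of the called loci, Mup8, Mup-ps6, Mup-ps17, Mup-ps18, Mup-ps20 and Mup-ps22 reached 1 CPM in 2 libraries only with the males counted. The filter thus favoured a higher male value for them, and their calls are no separate evidence of one. Unlike the protein-coding genes, 6 of the 16 tested pseudogenes had a log2 fold change below 0, none of which was called. Of 30 genes outside the family within 1 Mb of the cluster, 19 were tested and none was called between the sexes in either genotype by the quasi-likelihood test. At an unadjusted p under 0.05 there were 2 in WT and 3 in NT-KO, against 27% and 9.81% of all tested genes.

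**Figure D4:**
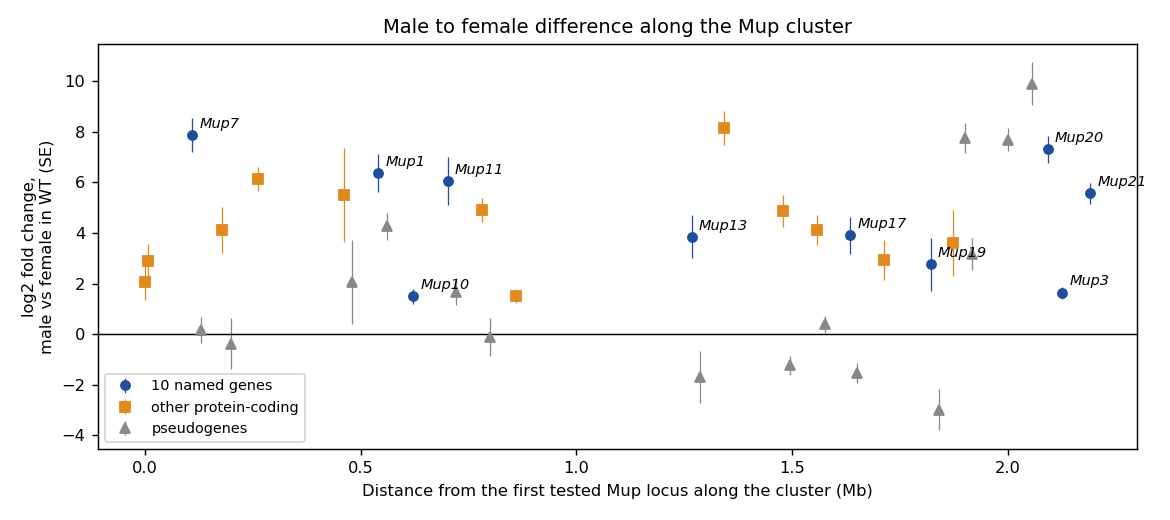
Log2 fold change between males and females in WT, with SE, for the tested Mup loci of chromosome 4 against their distance in Mb from the first of them. The 10 genes and the other protein-coding genes all lie above 0, from 1.49 to 8.15, and pseudogenes lie on both sides of 0.

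Between NT-KO and WT males none of the 10 genes was called by the quasi-likelihood test. Over all tested genes 0.0152% were called. The study, with edgeR's glmFit, the same thresholds and another filter, reported more genes in each sex. Of the 10 log2 fold changes 8 were below 0, with a median of -0.68 against 0.012 over all tested genes, and the range went from -1.48 for Mup21 to 0.28 for Mup11. Both NT-KO libraries lay below both WT libraries for 4 genes: Mup1, Mup7, Mup10 and Mup21, and above them for none. Over all tested genes 19.2% lay below in this way and 19.6% above, or 38.9% in all. Mup21 (SE 0.34, FDR 0.210) had the only unadjusted p under 0.05, while 11.5% of all tested genes had one. It was called by DESeq2, which called 1 of the 10, and by the likelihood ratio test, which also called 1. For Mup7 the log2 fold change was -0.70 (SE 0.49, FDR 0.632), for Mup20 -0.69 (SE 0.41, FDR 0.561) and for Mup10 -0.67 (SE 0.31, FDR 0.455). Mup13, at -0.75, and Mup17, at -0.82, each had an SE above 0.66. The family total had a log2 fold change of -0.56 (SE 0.31, FDR 0.533), which was -1.06 without the first and -0.19 without the second male NT-KO library.

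In females none of the 10 genes was called between NT-KO and WT by the quasi-likelihood test or by DESeq2, and 0.00762% of all tested genes were called by the former. The likelihood ratio test called 1, Mup1. The family total differed by -0.08 (SE 0.31, FDR 1), and by 0.11 without the first WT library or 0.075 without the first NT-KO library. Mup1 and Mup11 had an unadjusted p under 0.05, as had 1.55% of all tested genes, and they moved apart. Mup1 had a log2 fold change of 3.23 (SE 0.65, FDR 1), with both NT-KO libraries above both WT libraries. Mup11 had -2.20 (SE 0.80, FDR 1), with both NT-KO libraries below. Mup3, Mup13 and Mup20 also had both NT-KO libraries below both WT libraries, with log2 fold changes of -0.42, -1.10 and -0.56. For Mup13 the groups nearly touched, at 11.55 CPM in the first NT-KO library and 11.58 CPM in the second WT library. Over all tested genes both NT-KO libraries lay above both WT libraries for 12.2% and below them for 14.2%, or 26.4% in all. The median over the 10 was -0.49, against 0.001 over all tested genes.

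The genotype difference in males minus that in females was called for none of the 10 genes by the quasi-likelihood test or DESeq2, and for 0.0152% of all tested genes by the former. The likelihood ratio test called Mup1. Only Mup1 had an unadjusted p under 0.05, with a difference of -3.72 (SE 0.87, FDR 0.573), against 7.2% of the tested genes. The next in size was Mup11 at 2.48 (SE 1.09, FDR 0.688). For Mup20 the difference was -0.13 (SE 0.58, FDR 0.968), for Mup3 0.21 (SE 0.32, FDR 0.898), and for the family total -0.48 (SE 0.44, FDR 0.826). These genotype comparisons share libraries with those between the sexes, and their values are set side by side only.

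The spread between replicates was not even over the genes. Between the 2 libraries of a group, 2 of the 10 genes differed more than 2-fold in WT males, 4 in NT-KO males, 3 in WT females and 4 in NT-KO females. Over all tested genes the shares were 4.95%, 5.91%, 3.06% and 3.17%. Mup3 stayed within 0.44 on the log2 scale in every group, and Mup10 within 0.75. Mup19, all of whose 50-base stretches occur elsewhere, had a gap of -3.95 in NT-KO females. The gaps of different genes within a group also ran in opposite directions: in NT-KO females Mup1 and Mup7 were higher in the second library, by 1.66 and 1.29, while the gap of Mup13 was -2.10 on the log2 scale. Within NT-KO males 8 of the 10 genes were lower in the second library, Mup11 with a gap of -2.13.

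**Figure D5:**
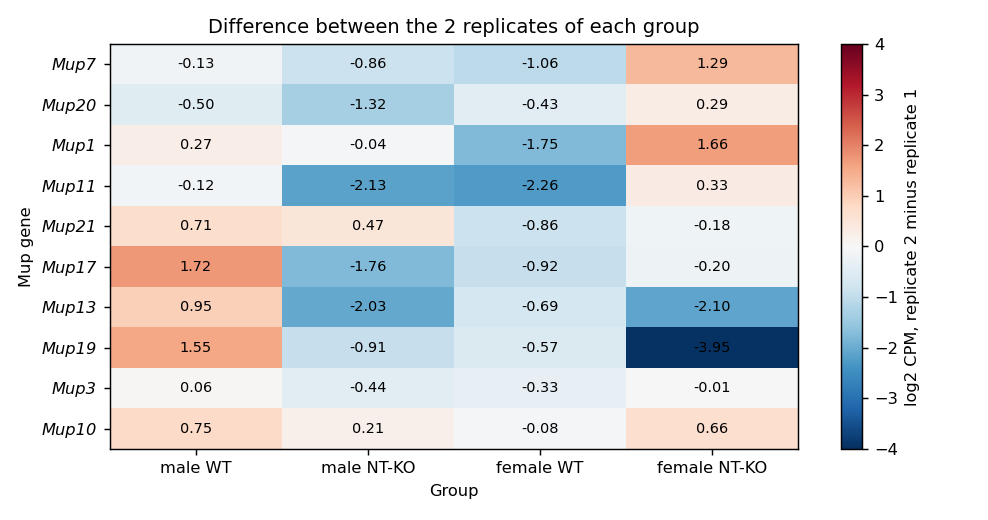
Log2 CPM of replicate 2 minus replicate 1 for the 10 Mup genes in each group, as colour and number. Over the 4 groups the gaps of Mup3 run from -0.44 to 0.06, and Mup19 in NT-KO females has the largest, at -3.95.

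Genes of the growth hormone pathway were measured beside the Mup genes. Of 17 listed genes of growth hormone and STAT5 signalling 16 were tested, and in WT livers 1 was called higher and 3 lower in males. Socs3, an inhibitor of cytokine signalling, was higher by 2.04 (FDR 0.0460), and Prlr, the prolactin receptor, differed by -3.21 (FDR 0.000155). Cux2, a repressor known from female liver, differed by -7.66 (FDR 0.000498), and Igfbp3, a carrier of IGF1, by -1.06 (FDR 0.0325). In NT-KO livers Prlr, Cux2 and Igfbp3 were called lower in males and no gene higher. The receptor Ghr had 513 to 566 CPM in WT males and 419 to 444 CPM in WT females, a difference of 0.32 (FDR 0.287). Stat5b itself had 27.9 to 41.9 CPM over the 8 libraries and differed between the sexes in WT by -0.15 (FDR 0.651). None of the 16 was called between NT-KO and WT in either sex by the quasi-likelihood test. At an unadjusted p under 0.05 there were 4 in males and 0 in females, against 11.5% and 1.55% of all tested genes. Of 20 other regulators listed for Mup or sex-biased expression, 19 were tested, and the quasi-likelihood test called none between NT-KO and WT in males or in females, with 4 and 0 at an unadjusted p under 0.05.

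Other genes known for a sex bias in liver were also called between the sexes. Of 18 listed male-biased genes, 15 were called higher in males in WT and 14 in NT-KO, among them the fatty acid hydroxylase Cyp4a12a at 9.80 (FDR 0.00166) in WT and 8.40 (FDR 0.00308) in NT-KO. The steroid dehydrogenase Hsd3b5 differed by 4.70 (FDR 0.0406) in WT and by 4.32 (FDR 0.109) in NT-KO. Of 18 female-biased genes 17 were tested, and 16 were called lower in males in WT and 14 in NT-KO. Over all tested genes 2.13% in WT and 0.945% in NT-KO were called higher in males, and 2.55% and 0.839% lower. The lists were chosen with earlier results of these data known, so these calls are not independent of the choice. None of either list was called between NT-KO and WT in males or in females by the quasi-likelihood test. At an unadjusted p under 0.05 there were 4 male-biased and 5 female-biased genes in males, and 2 and 1 in females. Over all tested genes the shares were 11.5% in males and 1.55% in females. Of 9 tested lipocalins outside the family, the odorant-binding protein gene Obp2a was called higher in males in WT (FDR 0.0244) and in NT-KO (FDR 0.0455). It had 489 and 60 counts in WT males and 532 and 97 in NT-KO males, against 0 and 1 in WT females and 3 and 4 in NT-KO females, too few there for a fold to be given. Obp2a thus passed the filter on low counts only through males. In NT-KO Ptgds was called lower in males, at -3.14 (FDR 0.0344).

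The genes whose log2 CPM ran most like the Mup family total over the 8 libraries were sought among 7394 genes that averaged 10 CPM or more. By Pearson's r they were Cyp7b1, an oxysterol hydroxylase of bile acid synthesis, at 0.996, Selenbp2 at 0.993, Gstp1 at 0.993, the complement genes C8a and C8b both at 0.988 and C6 at 0.986, Scyl3 at 0.987, Ces3a at 0.986, Moxd1 at 0.982 and Hsd3b2 at 0.980. Running most opposite were Gm6135 at -0.994, the transporter gene Slc22a27 at -0.994, Cyp2c38 at -0.993, Cyp2c40 at -0.988 and Nt5e at -0.986. The libraries form 2 clusters by sex, so these values mostly describe the gap between males and females, and all points share their libraries' scaling. With Spearman's rho 1 of the 10 most alike was again among the 10 highest, and with the sum of the 10 genes in place of the total 8 were. Cyp7b1 had its lowest male level in the second male NT-KO library, at 240 CPM against 536 to 754 CPM in the other 3 male libraries. It was picked for likeness to the total over these same libraries, so this is not a separate observation.

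Some measures outside the Mup genes moved with the groups. The clock genes Dbp and Arntl peak at opposite times of day, and log2 CPM of Dbp minus Arntl was 2.76 and 2.90 in WT males, 5.06 and 5.20 in NT-KO males, 6.62 and 6.91 in WT females and 4.80 and 6.62 in NT-KO females. The livers of WT males thus had the lowest values, and of 11 tested clock and feeding genes 3 were called higher and 2 lower in WT males than in WT females. Between NT-KO and WT males none of the 11 was called by the quasi-likelihood test. There 7 had an unadjusted p under 0.05, against 11.5% of all tested genes. All 5 red blood cell markers were tested, 4 of them called higher in WT males, and their sum was 445 to 947 CPM in WT males, 370 to 372 CPM in NT-KO males, 180 to 185 CPM in WT females and 170 to 320 CPM in NT-KO females. All 5 B lymphocyte markers were tested and 3 were called lower in WT males, with sums of 3.80 to 6.55 CPM in WT males, 9.03 to 51.0 CPM in NT-KO males, 21.1 to 21.8 CPM in WT females and 8.03 to 11.8 CPM in NT-KO females. The markers of pancreas and salivary gland summed to 28.0 to 38.6 CPM in WT males, 34.3 to 37.3 CPM in NT-KO males, 15.5 to 20.9 CPM in WT females and 13.8 to 18.0 CPM in NT-KO females, and the 1 tested, the elastase gene Cela1, was called higher in NT-KO males than in NT-KO females. No marker of cholangiocytes, Kupffer cells, endothelial cells or stellate cells was called in any comparison. Kupffer cell markers summed to 124 to 199 CPM in WT males and 244 to 251 CPM in WT females. Endothelial markers summed to 93.8 to 135 CPM in WT males and 162 to 166 CPM in WT females. The sums of cholangiocyte and stellate cell markers overlapped between these groups. None of the red cell and B lymphocyte markers was at 0 in any library. The part of these measures in the Mup differences was not tested.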

How the data were processed

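RNA from 8 livers was sequenced from TruSeq libraries. Per the labels and the methods, the authors trimmed reads with cutadapt, aligned them to GRCm38 with STAR 2.6.1a and deposited raw counts per Ensembl gene made with featureCounts, with no normalization. Whether reads with several matches were counted, and on which strand, is not given in the sources used here. Of 49671 identifiers, 49412 matched GENCODE M21 (GRCm38).

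Tests covered the 13117 genes that reached 1 CPM in 2 or more libraries and were not rRNA, miRNA or mitochondrial. All 8 libraries entered one model of the 4 group means in edgeR 4.0.16 (R 4.3.3), using TMM factors and the quasi-likelihood F-test, two-sided. The SE is the size of the log2 fold change divided by the square root of F. The code was tested on simulated data. A call needed a Benjamini-Hochberg FDR of 0.05 or less together with a change of more than 1 on the log2 scale, or the FDR alone for the genotype by sex term. For the family total, the counts of all Mup loci were summed to 1 row. Log2 CPM used a prior count of 2.

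DESeq2 1.42.0, the likelihood ratio test, other size factors, other filters, fewer libraries and a replicate block were tried as alternatives. The study's own calls came from edgeR's glmFit, on which the likelihood ratio test here is also built. Coding sequences were the shortest annotated of at least 500 bases and were aligned, as were promoters, with MAFFT 7.526. The genes and lists were chosen with earlier results of these data known. All 10 genes are named throughout. Other Mup loci are named where called or among the 5 most abundant, list genes by their FDR, and like genes by correlation.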

Additional observations from a re-analysis of the deposited data

How the results depend on the processing

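The count of genes called between the sexes in WT stayed within 1.5 times 9, and the family total in the 5 comparisons kept its direction and side of the threshold under all alternatives that keep all libraries (other size factors, filters, tests, blocks and samples in the fit). With the likelihood ratio test, DESeq2 and no filter beyond 1 count, 9 genes each were called between the sexes in NT-KO, against 5. Each of these also called 1 gene between NT-KO and WT males. The likelihood ratio test called 1 gene between NT-KO and WT females and 1 for the genotype by sex term, and the fit without a filter called 4 and 4. The causes were not tested. With a library left out in turn, the calls ranged from 5 to 9 in WT and from 3 to 7 in NT-KO between the sexes. The family total between the sexes in NT-KO ranged from 2.29 to 3.16, and for NT-KO vs WT in females from -0.26 to 0.11, turning without female WT 1 or female NT-KO 1.

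Of 890 values of single genes under an alternative, 813 kept direction and side, 39 newly passed, 18 no longer passed and 20 changed sign, none of which was called. With a library left out, those with a change of sign ranged as follows on the log2 scale. For NT-KO vs WT males Mup11 ranged from -1.15 to 0.98, Mup17 from -1.95 to 0.28 and Mup19 from -0.46 to 1.09. In females Mup7 ranged from -0.26 to 1.15, Mup10 from -0.31 to 0.36 and Mup17 from -0.54 to 0.38. For the genotype by sex term Mup3 ranged from -0.0206 to 0.40, Mup13 from -1.01 to 1.76, Mup17 from -1.80 to 0.44 and Mup20 from -0.94 to 0.38.

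Replicate numbers are shared between groups in the labels, which do not say whether they pair the samples. The correlations of replicate deviations ran from -0.18 to 0.21, and such values cannot settle this. With the replicate number as a block the calls were 9 in WT and 6 in NT-KO between the sexes, and 0 in the 3 other comparisons, and for NT-KO vs WT males Mup11 turned to -0.0577 and Mup19 to -0.21. With the male WT numbers crossed, an alternative chosen after seeing the data, 8 genes were called between the sexes in NT-KO and Mup11 was at -0.0766 in that male comparison. In the main fit, with 2 libraries in each group, Mup1 in females did not pass the FDR at a log2 fold change of 3.23. Mup10 passed it between the sexes in WT at 1.49. An unadjusted p under 0.05 in the quasi-likelihood test was reached by 1.55% of all tested genes in the former comparison and by 27% in the latter.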

Other observations

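Mup9 and Mup2, both among the 5 most abundant Mup loci outside the 10 genes, differed widely between replicates. Mup9 was at 75.3 and 4426 CPM in WT males, 138 and 1060 CPM in NT-KO males, 85.0 and 14.4 CPM in WT females and 280 and 775 CPM in NT-KO females, so that its sexes overlapped. Mup2 was at 283 and 1739 CPM in WT males, 408 and 768 CPM in NT-KO males, 81.6 and 36.0 CPM in WT females and 148 and 389 CPM in NT-KO females, with both sexes apart in each genotype. Of the 12 other protein-coding Mup genes, 5 differed more than 2-fold between the male WT libraries, 7 between NT-KO males, 6 between WT females and 6 between NT-KO females. Between NT-KO and WT females 6 of these 12 had both NT-KO libraries above both WT libraries and 1 had both below, against 12.2% and 14.2% of all tested genes. None was called by the quasi-likelihood test, with 4 at an unadjusted p under 0.05, against 1.55% of all tested genes. Mup14, with 14.9 and 8.74 CPM in WT females and 19.2 and 52.5 CPM in NT-KO females, had a log2 fold change of 1.60 (SE 0.50, FDR 1), and Mup12 one of 1.36 (SE 0.41, FDR 1). The cause of these values was not tested.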
